A study of Mus musculus with 3 samples.

Results

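The cells described here are mesenchymal cells of the mouse cochlea at embryonic day 15 (E15) that carried transcripts of both Pthlh and Gdf10 and few transcripts of cartilage genes. Single cells from whole cochleae of wildtype C57BL/6J mice had been dissociated with papain and thermolysin, sorted to remove debris and sequenced in droplets, with 2 libraries of E15 and 1 library of postnatal day 7 (P7). All groups share this strain and genotype, the labels name no treatment, and they do not say how many animals or litters were pooled in a library. A cell counted as mesenchyme when it had at least 500 genes, at most 20% mitochondrial unique molecular identifiers (UMIs), at least 3 UMIs of Col1a2 and Col3a1 together, and no UMI of Epcam, Cdh5, Sox10 or Ptprc. Pthlh+ Gdf10+ cells were those with at least 1 UMI of each gene and fewer than 4 UMIs of Col9a1, Col9a3 and Matn4 together, a sum called the cartilage sum below. This gave 61 of 1630 mesenchymal cells in E15 replicate 1 (3.74%, exact 95% interval 2.87 to 4.78) and 56 of 2067 in E15 replicate 2 (2.71%, 2.05 to 3.504), 117 of the 15272 barcodes of the series. The other 1569 and 2011 mesenchymal cells are called the rest.

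Pthlh encodes parathyroid hormone-related protein (PTHrP), a secreted peptide that acts through the G protein-coupled receptor Pth1r and cyclic AMP. In the growth plate it holds chondrocytes in a dividing state and delays their hypertrophy, in a loop with Indian hedgehog. Gdf10 encodes a secreted ligand of the TGF-beta superfamily closely related to BMP3. The mesenchyme around the embryonic cochlea gives rise to the cartilaginous and later bony otic capsule and to the connective tissue of the lateral wall, limbus and modiolus.

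The promoters of both gate genes are shown because the cells are defined by their joint expression. Each is the 250 bases before the RefSeq start site (GRCm38.p6), 5′ to 3′ on the gene's strand, with GC boxes (GGGCGG or its complement CCGCCC) in capitals. The Pthlh window lies at chr6:147264014-147264263 on the minus strand. GENCODE's model of the gene ends at position 147264183, inside this window. The Gdf10 window lies at chr14:33923337-33923586 on the plus strand and ends just before the annotated gene, which spans 33923587 to 33937983.
Pthlh: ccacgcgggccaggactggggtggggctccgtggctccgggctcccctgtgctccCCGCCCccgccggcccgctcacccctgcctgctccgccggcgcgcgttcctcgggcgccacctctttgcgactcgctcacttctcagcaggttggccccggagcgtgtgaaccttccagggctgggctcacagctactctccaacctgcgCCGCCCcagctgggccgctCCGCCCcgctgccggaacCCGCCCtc
Gdf10: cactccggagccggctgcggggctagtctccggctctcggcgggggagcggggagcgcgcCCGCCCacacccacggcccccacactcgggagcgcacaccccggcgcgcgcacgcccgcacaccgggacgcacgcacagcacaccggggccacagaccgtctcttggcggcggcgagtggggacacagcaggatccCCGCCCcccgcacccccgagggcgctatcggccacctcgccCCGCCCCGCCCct
Both windows held 4 GC boxes, a motif present in 32.7% of 27025 promoter windows of the same length. Their GC content was 75.2% for Pthlh and 78.8% for Gdf10, against a median of 52.0% over all windows, and they held 26 and 35 CG dinucleotides against a median of 5. Neither window held the letters of a cyclic AMP response element (TGACGTCA, in 1.56% of windows) or of a TATA box (TATAAA, in 12.9%), searched on both strands.

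The gate rested on few molecules per cell. Pthlh was seen with exactly 1 UMI in 33 of 61 cells of replicate 1 and 32 of 56 cells of replicate 2, and its highest counts were 6 and 12. Gdf10 had a median of 2 UMIs in both libraries and highest counts of 17 and 7. The median depth of the Pthlh+ Gdf10+ cells was 15144 UMIs in replicate 1 and 9995 in replicate 2, against 15258 and 11476 in the rest. No barcode shared between libraries belonged to these cells, and 3 were shared between the E15 libraries. The summed counts that carry all levels below were 936394 and 660454 UMIs.

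Free RNA gives UMIs in cells that do not express a gene, and the share of other cells with a UMI differed between the gate genes. Pthlh had a UMI in 15.4% of mesenchymal cells of replicate 1 and 14.5% of replicate 2, against 7.19% and 6.80% of cells with at least 2 UMIs of the epithelial gene Epcam and 6.49% and 5.26% of cells with at least 2 UMIs of the glial gene Sox10. Gdf10 had a UMI in 36.4% and 29.4% of mesenchymal cells, against 7.53% and 5.38% of the Epcam cells and 1.48% and 0.585% of the Sox10 cells. Both genes together were seen in 9.39% and 8.52% of mesenchymal cells before the cartilage limit, against 2.06% and 0.850% of the Epcam cells. Median depths of these mesenchymal, Epcam and Sox10 cells were 15256, 14509.5 and 15617 UMIs in replicate 1 and 11445, 9671 and 11249 in replicate 2. Cells with at least 2 UMIs of Cdh5 (43 and 55 cells) had Pthlh in 2.33% (0.059 to 12.3) and 0% (0 to 6.49). Those with at least 2 UMIs of Ptprc (38 and 35 cells) had it in 2.63% (0.067 to 13.8) and 0% (0 to 10.0). Whether the Epcam or Sox10 cells express Pthlh was not tested. If their share is background, a single Pthlh UMI does not separate expression from background in a given cell.

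Gdf10 was seen in a larger share of E15 mesenchymal cells with Pthlh than of those without it, which is a description because the gate used both genes. Below the cartilage limit, Gdf10 had a UMI in 52.6% (43.1 to 61.9) of cells with Pthlh and 34.1% (31.0 to 37.4) of cells without it in replicate 1. The same shares were 50% (40.4 to 59.6) and 24.0% (21.6 to 26.6) in replicate 2. Cells with Pthlh were somewhat deeper, with medians of 15521.5 against 13217.5 UMIs in replicate 1 and 10891.5 against 9772.5 in replicate 2. At or above the limit the shares were 68.1% and 28.2% in replicate 1 and 63.8% and 25.3% in replicate 2. More double-positive cells lay at or above the cartilage limit (92 and 120) than below it (61 and 56), so the Pthlh+ Gdf10+ cells described here are the smaller part of all mesenchymal cells with both genes.

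Defining markers of mesenchyme were present in these cells. Pou3f4, a transcription factor of otic mesenchyme, stood at 432.5 and 354.3 CPM (summed UMIs of the gene for every 1e+06 UMIs of these cells) in replicates 1 and 2. Twist1 stood at 356.7 and 325.5 CPM, Pdgfra at 164.5 and 113.6 CPM, and Tbx18 at 198.6 and 159 CPM. Of the defining markers of other cell types, Epcam, Cdh5, Sox10 and Ptprc were at 0 by the rule, and Krt8, Pecam1, Foxd3, Csf1r, C1qa, Kcnj8, Abcc9, Acta2, Myh11, Myod1, Myog and Actc1 were also at 0 in both libraries. Emcn, an endothelial marker, was the exception at 243.5 and 189.3 CPM, against 125.6 and 124.7 CPM in the rest (log2 change 0.80 ± 0.08, SE; adjusted p = 3.88e-19), with Pecam1 at 0 and Cldn5 seen in replicate 1 only. Chondrocyte markers were mixed: Sox9 stood at 170.9 and 215 CPM and Col2a1 at 784.9 and 796.4 CPM, close to the rest (177.9 and 182.4, and 837.6 and 822.3 CPM), while Acan and Matn1 were at 0. The rest held Acan at only 1.99 and 1.65 CPM and Matn1 at 0.450 and 0.235 CPM, too low for these zeros to set the cells apart.

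Values of the gate genes and of the markers given with the cells are descriptions. Pthlh stood at 122.8 and 174.1 CPM in the Pthlh+ Gdf10+ cells and at 18.16 and 22.56 CPM in the rest. Gdf10 stood at 212.5 and 222.6 CPM against 77.57 and 63.02 CPM. Pgf, which encodes placental growth factor of the VEGF family, stood at 89.71 and 119.6 CPM against 28.06 and 31.76 CPM, and was seen in 30 of 61 and 27 of 56 cells. Lepr, the leptin receptor, stood at 57.67 and 68.13 CPM against 19.73 and 15.98 CPM, and was seen in 26 cells of each library. Just inside the limit, cells with a cartilage sum of 3 (10 and 7 cells) held Pgf at 141.5 and 172.3 CPM and Angpt1 at 283 and 161.5 CPM. Just outside it, double-positive cells with a sum of 4 (3 and 8 cells) held Pgf at 264.3 and 52.53 CPM and Angpt1 at 176.2 and 178.6 CPM. Far outside, those with a sum of 10 or more (61 and 74 cells) held Pgf at 43.63 and 61.59 CPM, Angpt1 at 77.56 and 63.76 CPM, and Sox9 at 400.9 and 295.6 CPM.

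Against the rest of E15 mesenchyme, 137 of 13371 genes tested were higher in the Pthlh+ Gdf10+ cells (1.02%) and 183 were lower (1.37%). In all, 2.39% of genes were called. A call needed an adjusted p (Benjamini-Hochberg) below 0.05 in edgeR's quasi-likelihood test on the 4 summed counts, and a fitted fold of 2 or more, which is 1 on the log2 scale. Of the genes called higher, 123 were higher in both libraries and 14 in only 1 of them, and in 28 a single cell held over 50% of a library's UMIs of the gene in these cells. All 183 genes called lower were lower in both libraries, with 16 so carried by a single cell. Of the 183, 26 had no UMI in any Pthlh+ Gdf10+ cell. Over all genes tested, 60.7% changed in the same direction in both libraries. The calls were fitted on these same libraries, so their agreement is no further test. The fit has 1 residual degree of freedom and shares its spread across all genes, so that a gene's own difference between the libraries has no weight. DESeq2 called 62 higher and 51 lower, of which 61 and 50 were among those above.

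**Figure D1:**
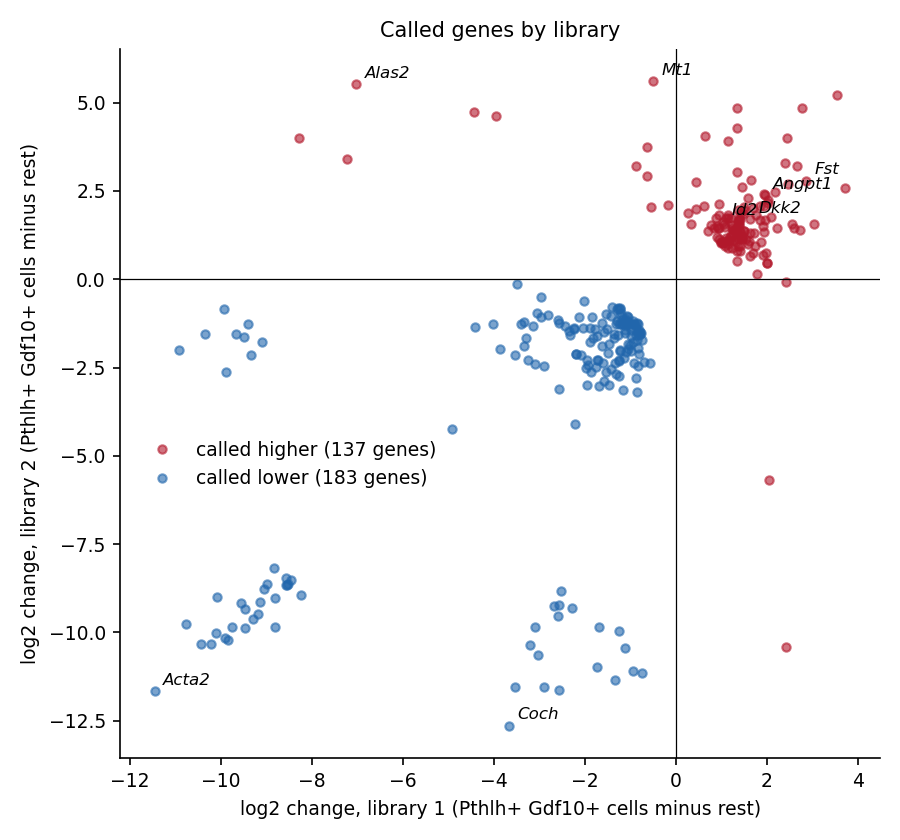
Log2 change of each called gene (Pthlh+ Gdf10+ cells minus rest) in E15 replicate 1 (x axis, library 1) and replicate 2 (y axis, library 2). Each point is a gene, red where called higher (137) and blue where called lower (183). Red points left of or below the zero lines are the 14 genes higher in only 1 library, and the position of genes with no UMI in the Pthlh+ Gdf10+ cells of a library, such as Acta2, is set by the prior count of the fit.

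Angpt1 led the leading genes, which are the called genes of largest change with at least 50 CPM in the higher group in both libraries. Some called genes at lower levels changed more, such as Fst (2.83). Angpt1 encodes angiopoietin-1, the secreted ligand of the endothelial receptor Tek that stabilises vessels. Its level was 184.8 and 225.6 CPM in the Pthlh+ Gdf10+ cells and 47.15 and 43.9 CPM in the rest, with no overlap between the groups (log2 change 2.15 ± 0.11, SE; adjusted p = 7.98e-87). The transcript was seen in 46 of 61 and 43 of 56 cells, and no cell held over 7.51% of its UMIs in a library. The gene spans 42424723 to 42676977 on chromosome 15 (GRCm38, minus strand). Among the 11 members of the VEGF and angiopoietin list that were tested, Angpt1 alone was called, and the list's median log2 change was 0.14, against -0.03 over all genes. Angptl4 stood at 70.48 and 72.68 CPM against 38.9 and 43.71 CPM (0.80 ± 0.17, adjusted p = 9.44e-05). Nrp2, a co-receptor for VEGF-C and class 3 semaphorins, stood at 367.4 and 245.3 CPM against 192.2 and 195.4 CPM (0.66 ± 0.09, adjusted p = 5.51e-11). Both passed the adjusted p but not the fold of 2. Vegfa stood at 107.9 and 56.02 CPM against 65.5 and 64.9 CPM (adjusted p = 0.0863), so its libraries went opposite ways.

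Id2, an inhibitor of basic helix-loop-helix factors and a known target of BMP signalling, was the most abundant of the leading genes. It stood at 424 and 616.2 CPM in the Pthlh+ Gdf10+ cells and 204.2 and 201.4 CPM in the rest (1.34 ± 0.09, adjusted p = 3.47e-48). Dkk2, a secreted modulator of WNT signalling, stood at 176.2 and 152.9 CPM against 56.45 and 47.31 CPM (1.66 ± 0.11, adjusted p = 5.27e-45). Ntrk2, the receptor TrkB for the neurotrophin BDNF, stood at 165.5 and 175.6 CPM against 64.59 and 67.99 CPM (1.36 ± 0.11). Crabp1, which binds retinoic acid in the cytoplasm, stood at 251 and 219.5 CPM against 88.56 and 87.22 CPM (1.43 ± 0.09). Npy, the secreted neuropeptide Y, stood at 68.35 and 81.76 CPM against 26.37 and 26.32 CPM (1.495 ± 0.18) and was seen in 19 and 21 cells. For each of these genes both libraries of Pthlh+ Gdf10+ cells lay above both libraries of the rest, which describes the values behind the call. Angpt1 and Id2 were called in all 15 settings tried with a test. With the rest held to the same cartilage limit, Crabp1 (0.89, adjusted p = 5.92e-15) and Npy (0.90, adjusted p = 4.3e-05) fell below the fold of 2, and with a rest matched on depth Crabp1 stood at 1.00 (adjusted p = 6.61e-09), also below it. Crabp1 was not called with the thinned gate either (0.44, adjusted p = 0.518), nor Dkk2 with at least 2 UMIs of each gate gene (0.68, adjusted p = 0.367), and with no cartilage limit Dkk2 (0.44), Ntrk2 (0.52), Crabp1 (0.63) and Npy (0.24) fell below the fold of 2.

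The other leading genes higher in these cells lay between log2 changes of 1.22 (Cd302) and 1.44 (Hs3st3b1). The gate was also set after thinning to 5000 UMIs, which gave 33 and 45 cells. Its cartilage limit was applied to the thinned counts too, so cells at or above the limit at full depth could enter. Under this gate Khdrbs2, Vldlr (0.35, adjusted p = 0.928), Gfod2, Rcsd1, Exoc1, Ddah1 and Cd302 were not called. Hs3st3b1 and Exoc1 (-0.78) were not called with at least 2 UMIs of each gate gene (16 and 18 cells). With no cartilage limit Gfod2, Fndc3a, Rcsd1, Exoc1, Ddah1 and Cd302 were not called. Hs3st3b1, which adds 3-O-sulfate to heparan sulfate chains, stood at 59.8 and 60.56 CPM against 23.07 and 20.95 CPM. Khdrbs2, an RNA-binding splicing regulator, stood at 117.5 and 106 CPM against 44.08 and 42.14 CPM, and Vldlr, a receptor for reelin and lipoproteins, at 81.16 and 60.56 CPM against 27.65 and 27.88 CPM. Fndc3a was seen in 60 of 61 and 52 of 56 cells, at 370.6 and 398.2 CPM against 152.1 and 152.5 CPM. Ddah1, which breaks down an inhibitor of nitric oxide synthases, stood at 153.8 and 172.6 CPM against 63.54 and 72.22 CPM, and the lectin receptor Cd302 at 295.8 and 310.4 CPM against 127.5 and 133.1 CPM. Rcsd1 stood at 67.28 and 72.68 CPM against 28.02 and 27.77 CPM. Calls of Gfod2 and of the exocyst subunit Exoc1 leaned on single cells: 62.5% of the Gfod2 UMIs in replicate 2 and 79.0% of the Exoc1 UMIs in replicate 1 came from 1 cell.

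The 15 genes lower by the same rule were led by Coch, which encodes cochlin, an extracellular protein of cochlear fibrocytes. Coch stood at 4.27 and 0 CPM in the Pthlh+ Gdf10+ cells and 53.94 and 59.41 CPM in the rest, and a single cell of replicate 1 held every UMI of it (log2 change -4.48 ± 0.41, adjusted p = 4.95e-25). DESeq2 did not call it (adjusted p = 0.118). Dcn, the matrix proteoglycan decorin, stood at 25.63 and 106 CPM against 199.1 and 223.8 CPM (-1.82 ± 0.11, adjusted p = 8.89e-50), a larger spread between libraries than in the rest, and DESeq2 did not call it either (adjusted p = 0.417). Lum, the related proteoglycan lumican, stood at 38.45 and 45.42 CPM against 113.6 and 129.4 CPM (-1.54 ± 0.15). Apod, a secreted lipocalin, stood at 145.2 and 75.71 CPM against 300.4 and 299.8 CPM (-1.42 ± 0.10), and Meox2, a mesodermal homeobox factor, at 29.9 and 10.6 CPM against 70.15 and 71.24 CPM (-1.70 ± 0.22). Dab2, an endocytic adaptor, stood at 26.7 and 18.17 CPM against 101.8 and 89.33 CPM (-2.06 ± 0.19). The tetraspanin Tspan5 (-2.02), the peptide-amidating enzyme Pam (-1.93), the transcription factor Ets1 (-1.84), Arhgap29 (-1.58), the ephrin receptor Epha7 (-1.501), Crip1 (-1.503), Wdcp (-1.65) and the non-muscle myosin Myh9 (-1.39) were lower as well. With the gate set after thinning Pam, Ets1, Crip1 and Myh9 were not called, and with no cartilage limit Pam, Crip1 and Lum were not and Wdcp turned to 0.34. Of Ckb (-1.47), 72.0% and 63.2% of the UMIs in these cells came from 1 cell of each library.

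**Figure D2:**
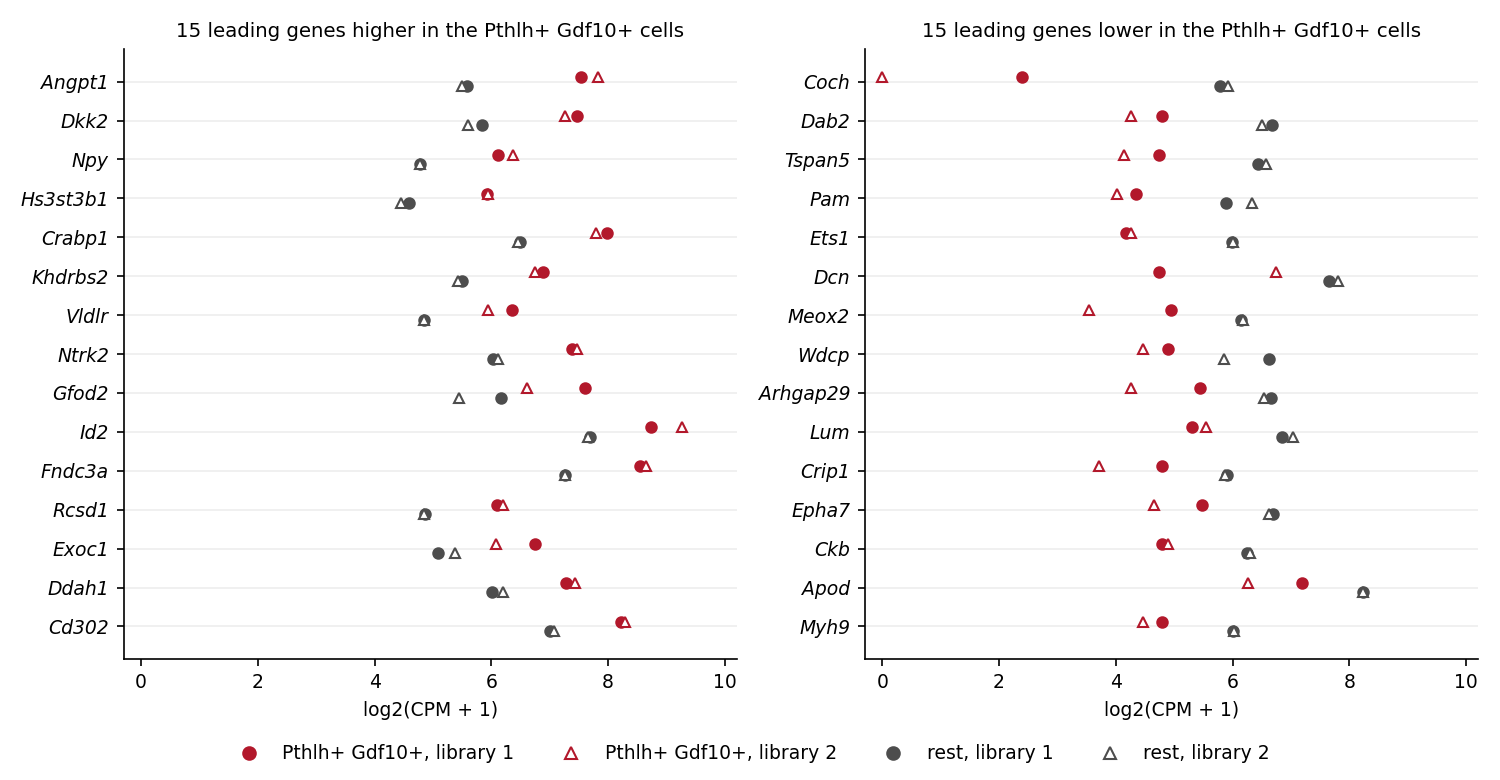
Levels of the 15 leading genes called higher (left) and the 15 called lower (right), as log2(CPM + 1) on the x axis, with genes on the y axis in order of fitted change. Red marks are the Pthlh+ Gdf10+ cells and grey marks the rest, circles E15 replicate 1 and triangles E15 replicate 2. In every row the red and grey marks are apart, and Coch in replicate 2 lies at 0.

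Most Pthlh+ Gdf10+ cells carried several of the leading higher genes. After thinning each cell to 5000 UMIs (60 and 52 Pthlh+ Gdf10+ cells were deep enough), a cell carried a median of 7 of the 15 leading higher genes in both libraries, with a range of 2 to 12 and 2 to 11. Cells of the rest carried a median of 3, and 6.95% and 7.84% of them carried none, as no Pthlh+ Gdf10+ cell did. Of the 15 leading lower genes, Pthlh+ Gdf10+ cells carried a median of 2 and 1 and cells of the rest a median of 4. These genes were chosen by the same contrast, so the counts describe how they are distributed and are no further test. The ranges of the sets overlapped: single cells of the rest carried up to 12 leading higher genes.

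**Figure D3:**
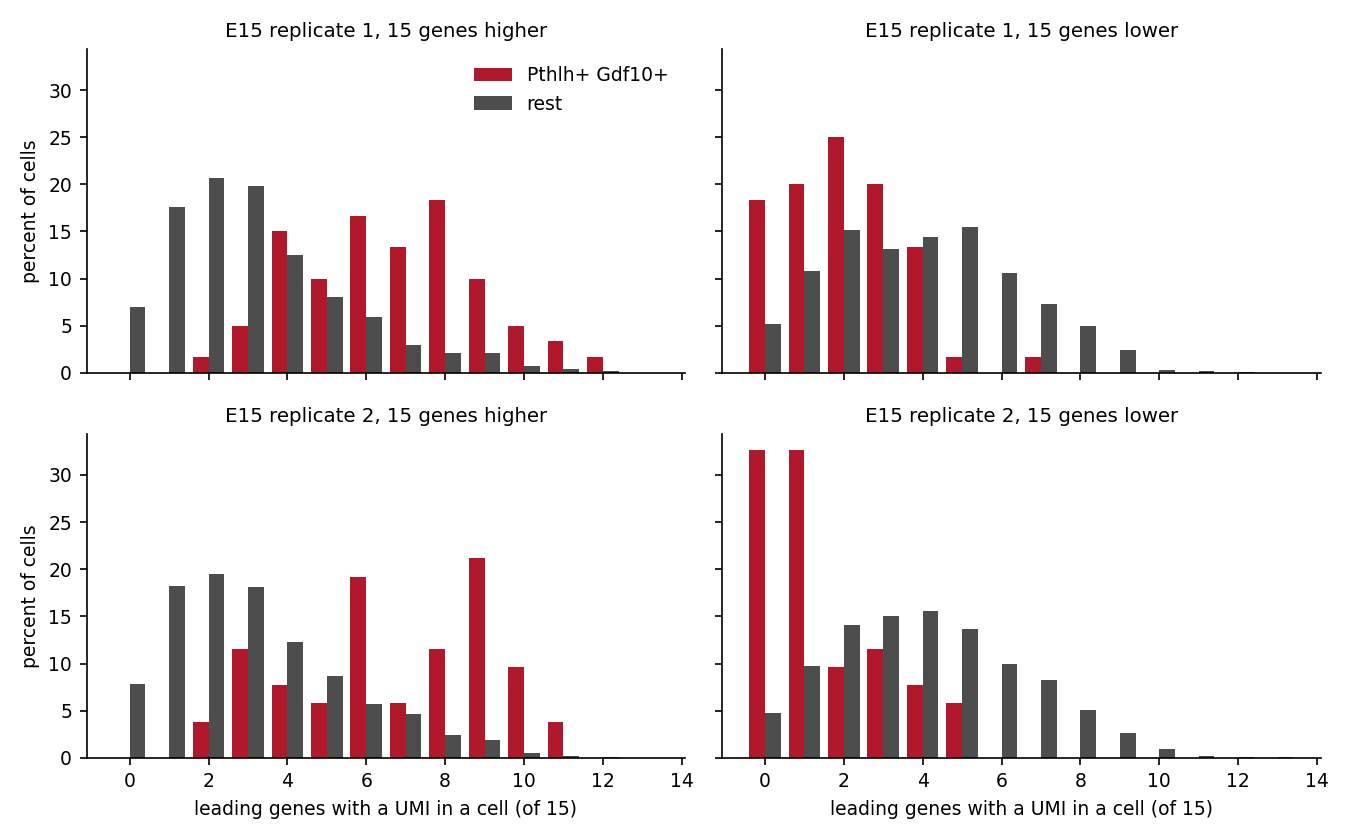
Number of the 15 leading higher genes (left) and 15 leading lower genes (right) with at least 1 UMI in a cell after thinning to 5000 UMIs (x axis), and the percent of cells with that number (y axis). Upper panels are E15 replicate 1, lower panels replicate 2. Red bars (Pthlh+ Gdf10+) centre on 7 of the higher genes and grey bars (rest) on 3.

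Levels in the neighbouring classes of E15 mesenchyme, cut by the same gate, showed which genes went with which gate gene. These classes are part of the rest, so the values are given side by side with no test. Cells below the cartilage limit with Gdf10 only (299 and 277 cells) held Dkk2 at 153.6 and 130.6 CPM, Ntrk2 at 182.7 and 177.8 CPM, Cxcl12 at 752.6 and 703.5 CPM and Npy at 66.97 and 76.74 CPM. These were near the levels of the Pthlh+ Gdf10+ cells. Cells with Pthlh only (55 and 56 cells) held the same genes at 67.32 and 49.41, 83.35 and 105.7, 224.4 and 230.6, and 25.65 and 9.61 CPM, nearer to cells with neither gene (577 and 877 cells), which held them at 57.46 and 52.21, 42.44 and 59.44, 226 and 271.5, and 30.38 and 31.69 CPM. Tgfb2 was higher in the cells with Gdf10 only, at 217.1 and 214.9 CPM, than in those with both genes, at 124.9 and 145.4 CPM.

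Angpt1, Pgf and Ntf3 were highest in the cells with both genes below the limit. Angpt1 stood at 184.8 and 225.6 CPM there, 136 and 119.9 CPM with Gdf10 only, 32.06 and 31.57 CPM with Pthlh only and 16.61 and 29.99 CPM with neither. Pgf stood at 89.71 and 119.6 CPM with both genes, 39.68 and 52.83 CPM with Gdf10 only, 14.96 and 26.08 CPM with Pthlh only and 22.98 and 27.01 CPM with neither. Ntf3 stood at 49.12 and 49.97 CPM with both genes, 34.37 and 33.2 CPM with Gdf10 only, 9.62 and 10.98 CPM with Pthlh only and 6.60 and 6.70 CPM with neither. Lepr had an uneven level in the cells with Pthlh only, 66.25 and 17.84 CPM, which overlapped that of the cells with both genes. Double-positive cells at or above the cartilage limit (92 and 120 cells) shared part of the pattern: Angpt1 stood at 108.2 and 91.6 CPM against 28.85 and 27.62 CPM in the other high-cartilage cells, Hs3st3b1 at 66.82 and 68.34 against 17.33 and 17.94 CPM, and Id2 at 724.6 and 685.3 against 180 and 191.5 CPM. Dkk2, at 38.58 and 31.5 CPM, and Cxcl12, at 144.9 and 174.5 CPM, did not follow there. Coch stood at 3.29 to 10.98 CPM in the classes with Pthlh only or Gdf10 only, at 4.27 and 0 CPM with both genes below the limit, and in the high-cartilage double-positive cells at 4.71 and 9.69 CPM. It stood at 116.3 and 122.3 CPM in the other high-cartilage cells.

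**Figure D4:**
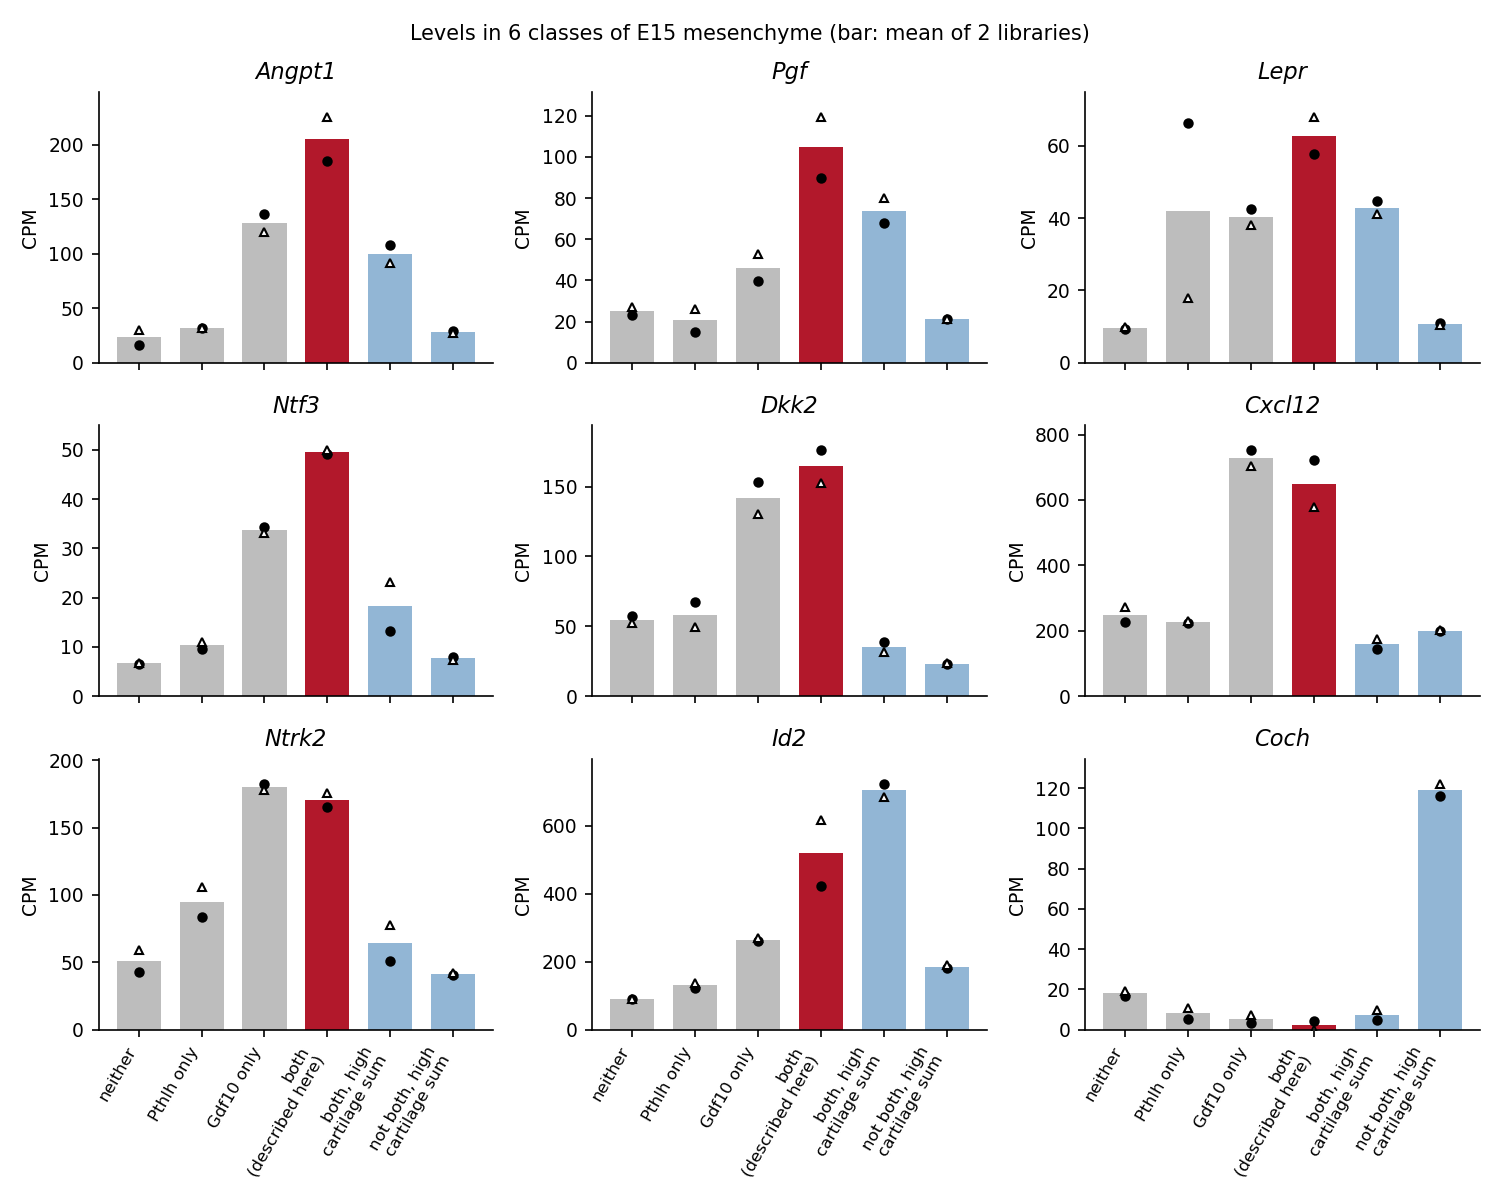
Levels of 9 genes in CPM (y axis, linear, from 0) in 6 classes of E15 mesenchyme (x axis). Bars are means of the 2 E15 libraries, circles replicate 1 and triangles replicate 2, with the Pthlh+ Gdf10+ cells in red, classes below the cartilage limit in grey and those at or above it in blue. Dkk2, Cxcl12 and Ntrk2 are higher with Gdf10 only than with Pthlh only, Angpt1 and Pgf are highest with both, and Id2 is highest in double-positive cells above the limit.

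Of 12 genes of the PTHrP pathway tested, which leave out the ligand in the gate, none was called by edgeR or DESeq2, 1 (Pde4d, adjusted p = 0.301) had an unadjusted p under 0.05 in edgeR, and the median log2 change was 0.04. With 2.39% of all genes called, so short a list can hold no call without standing apart. The receptor gene Pth1r stood at 42.72 and 48.45 CPM in the Pthlh+ Gdf10+ cells and 39.69 and 47.27 CPM in the rest (0.08 ± 0.20, adjusted p = 0.927), and was seen in 24 and 21 cells. Gnas, which encodes the stimulatory G protein, stood at 1502 and 1402 CPM against 1442 and 1441 CPM. Of 12 Hedgehog genes tested 1 was called: Gli1, a target and effector of the pathway, stood at 44.85 and 39.37 CPM against 22.47 and 19.27 CPM (1.01 ± 0.23, adjusted p = 5.05e-04), at the fold threshold, and it was not called with the rest held to the cartilage limit (0.79, adjusted p = 0.0225) or matched on depth (1.01, adjusted p = 0.0563). None of 10 leptin pathway genes other than Lepr was called by edgeR or DESeq2, 2 had an unadjusted p under 0.05 in edgeR, and the median was 0.18. The smallest adjusted p there was 0.0646 for Socs3, a feedback inhibitor, at 136.7 and 151.4 CPM against 114 and 121.8 CPM.

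Among TGF-beta and BMP ligands other than Gdf10, 1 of 11 tested was called. Tgfb3 stood at 57.67 and 37.85 CPM against 21.34 and 19.93 CPM (1.24 ± 0.22, adjusted p = 1.69e-06), and against a rest matched on depth at 0.84 (adjusted p = 0.0997). Tgfb2 stood at 124.9 and 145.4 CPM against 68.53 and 67.95 CPM (0.97 ± 0.12, adjusted p = 1.97e-14), just under the fold of 2. Bmp4 stood at 39.51 and 48.45 CPM against 34.17 and 35.25 CPM (adjusted p = 0.498), and Bmp3, the closest relative of Gdf10, at 3.20 and 6.06 CPM against 1.80 and 1.88 CPM (adjusted p = 0.433). Of 13 BMP antagonists tested, 2 were called higher. Fst, which encodes the activin and BMP trap follistatin, stood at 27.77 and 21.2 CPM against 3.79 and 3.09 CPM (2.83 ± 0.36, adjusted p = 3.69e-13) but was seen in only 11 and 5 cells. Bmper stood at 22.43 and 24.23 CPM against 8.48 and 7.68 CPM (1.52 ± 0.33, adjusted p = 2.27e-04), and against a rest matched on depth its adjusted p was 0.0541. Among 30 receptors and targets of the family, Id2 was called higher and the co-receptor Eng lower (2.14 and 9.09 against 17.59 and 18.02 CPM).

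Secreted growth factors of other families included several calls. Ntf3, the neurotrophin NT-3, stood at 49.12 and 49.97 CPM against 11.89 and 11.36 CPM (2.09 ± 0.25, adjusted p = 1.97e-14) and was seen in 28 and 25 cells. Pdgfc stood at 26.7 and 31.8 CPM against 8.10 and 7.99 CPM (1.85 ± 0.31), and Pdgfd, at 8.54 and 13.63 CPM against 3.08 and 2.23 CPM (2.00 ± 0.51), was seen in 8 and 7 cells. The receptor genes Pdgfrb (32.04 and 27.25 against 70.97 and 66.66 CPM) and Kit (12.82 and 4.54 against 32.03 and 23.93 CPM) were lower, so of 20 genes tested in this list 3 were higher and 2 lower. Of 34 WNT genes tested 3 were called higher and none lower, against 1.02% and 1.37% of all genes. The list's median was -0.04, and at an unadjusted p under 0.05 in edgeR 10 were higher and 6 lower. The 3 calls were Dkk2, the agonist Rspo2 and the ligand Wnt11. Rspo2 stood at 33.11 and 21.2 CPM against 5.55 and 7.29 CPM (2.14 ± 0.32, adjusted p = 4.64e-09). Wnt11 stood at 19.22 and 18.17 CPM against 6.94 and 8.19 CPM (1.33 ± 0.36, adjusted p = 5.14e-03). Against a rest matched on depth neither Rspo2 (1.26, adjusted p = 0.182) nor Wnt11 (1.01, adjusted p = 0.378) was called, with 8123 genes tested there. Fgf9 was the only call among 19 FGF genes, at 22.43 and 15.14 CPM against 5.74 and 4.82 CPM (1.84 ± 0.36). Igf1 (12.82 and 31.8 against 8.25 and 7.60 CPM) was called higher with 75% of its replicate 1 UMIs in 1 cell, and the binding protein gene Igfbp7 lower (4.27 and 0 against 31.85 and 27.85 CPM).

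Of 16 retinoic acid genes tested, Crabp1 was higher and Aldh1a2, which makes retinoic acid, was lower at 1.07 and 4.54 CPM against 17.41 and 11.12 CPM (-2.54 ± 0.58, adjusted p = 4.8e-04). Of 13 Notch genes tested 3 were called lower and none higher, against 1.37% and 1.02% of all genes. The list's median was -0.07, and at an unadjusted p under 0.05 in edgeR 2 were higher and 3 lower. The 3 calls were Notch1 (12.82 and 3.03 against 28.58 and 26.87 CPM), the target Heyl (6.41 and 0 against 13.77 and 12.89 CPM) and the ligand Jag1 (4.27 and 12.11 against 17.14 and 18.96 CPM). DESeq2 called none of them. Among 36 guidance and chemokine genes 2 were higher and 7 lower. Cxcl12, the chemokine that acts through Cxcr4, stood at 721.9 and 578.4 CPM against 286.5 and 280.9 CPM (1.19 ± 0.09, adjusted p = 5.58e-39) and was seen in 58 of 61 and 53 of 56 cells. Its scavenger receptor gene Ackr3 stood at 33.11 and 45.42 CPM against 17.18 and 16.68 CPM (1.18 ± 0.25). With the rest held to the cartilage limit Cxcl12 stood at 0.84 (adjusted p = 1.32e-09), below the fold of 2. The lower genes included Ccl2 (2.14 and 0 against 12.68 and 29.41 CPM) and the ephrin receptor genes Epha7 and Epha5 (7.47 and 19.68 against 44 and 46.84 CPM).

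Of 11 bone genes tested 4 were higher and none lower, with a median of 1.44, and DESeq2 called 2. Runx2, the transcription factor that starts bone formation, stood at 20.29 and 21.2 CPM against 7.09 and 8.30 CPM (1.44 ± 0.35, adjusted p = 1.04e-03) and was seen in 14 and 11 cells. The other calls leaned on single cells. Ibsp, bone sialoprotein, was seen in 5 and 6 cells, with 71.4% of its replicate 1 UMIs in 1 cell. Spp1, osteopontin, was seen in 7 and 3 cells, and 1 cell held 55.6% and 81.3% of its UMIs. Tnfrsf11b, the RANKL decoy osteoprotegerin, was seen in 6 and 3 cells, and 1 cell held 50% of its UMIs in each library. Sp7 and Bglap, which mark committed and mature osteoblasts, had no UMI in any Pthlh+ Gdf10+ cell. The rest held Sp7 at only 1.76 and 1.14 CPM and Bglap at 0.188 and 0.235 CPM. At such levels the absence of UMIs does not set these cells apart from the rest. Of 19 cartilage genes other than those of the gate, 2 were lower, Hapln1 and Mia, with a median of -0.69. Both calls were lost with the rest held to the same cartilage limit (adjusted p = 0.475 and 0.117), and the list is not independent of a limit set on cartilage genes. Of 16 perichondrium and tendon genes tested, Dcn, Lum and Postn were lower and none was higher. Postn, periostin, stood at 5.34 and 25.74 CPM against 41.11 and 37.13 CPM (-1.501 ± 0.29), and was not called with the rest held to the cartilage limit (-0.59, adjusted p = 0.469).

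Of 57 transcription factors of otic mesenchyme tested, Maf was higher (100.4 and 92.36 against 46.06 and 41.91 CPM, 1.13 ± 0.15), Meox2, Zic1 and Epas1 were lower, and 53 were not called. Maf stood at 0.73 (adjusted p = 5.4e-05) with the rest held to the cartilage limit. Among 21 fibrocyte genes 1 was higher (S100b) and 4 were lower, among them Coch, Apod and Car3, the last a carbonic anhydrase at 17.09 and 21.2 CPM against 43.74 and 63.33 CPM. Car3 stood at -0.65 (adjusted p = 0.213) with the rest held to the cartilage limit and turned to 0.54 (adjusted p = 0.733) against a rest matched on depth. In the matrix lists, 2 of 24 collagens were higher (Col24a1, Col8a2) and 3 lower. Col4a1, a basement membrane collagen, stood at 161.3 and 154.4 CPM against 337 and 367.8 CPM (-1.15 ± 0.10, adjusted p = 2.81e-29), and Col1a1 at 26.7 and 31.8 CPM against 51.02 and 78.21 CPM. Of 59 matrix glycoproteins and proteoglycans 1 was higher, the matricellular protein gene Ccn4 (63.01 and 81.76 against 32.48 and 30.27 CPM), and 6 were lower. Of 35 proteases and inhibitors 3 were higher and 1 lower. Timp3, an inhibitor of metalloproteinases, stood at 356.7 and 342.2 CPM against 175.6 and 168.2 CPM (1.03 ± 0.09, adjusted p = 1.72e-27), near the fold threshold. Against a rest matched on depth it stood at 0.87 (adjusted p = 9.32e-10). Of 38 adhesion genes 2 were higher (Lsamp and Cntn3) and 7 lower.

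Of 25 G2/M genes, none had a change above 0, 4 were called lower (Cenpa, Cenpe, Cenpf and Kif20a) and the median was -0.76. Cenpa stood at 116.4 and 59.05 CPM against 208 and 196.4 CPM (-1.16 ± 0.10, adjusted p = 7.11e-25). With the rest held to the cartilage limit none of the 4 passed the fold of 2, and Cenpa, at -0.54 (adjusted p = 1.29e-03), and Cenpf, at -0.38 (adjusted p = 0.0457), still passed the adjusted p. None of 25 S-phase genes was called in either direction by edgeR or DESeq2, with a median of -0.17 and 9 lower at an unadjusted p under 0.05 in edgeR. After thinning to 5000 UMIs, 30.0% (18 of 60 cells, 18.8 to 43.2) of Pthlh+ Gdf10+ cells in replicate 1 and 23.1% (12 of 52, 12.5 to 36.8) in replicate 2 had at least 2 UMIs of the G2/M genes. The shares were 38.4% and 38.9% in the whole rest and 26.8% and 28.9% in its low-cartilage part. Without thinning they were 60.7% and 37.5% against 55.2% and 51.0% in the whole rest, so the order of the first library turned and none is read from it.

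Of 19 genes of the response to dissociation tested, Dusp1 was called and 18 were not, and the median was 0.52. The change was above 0 in 16 of the 19, against 6192 of 13371 genes tested in all. At an unadjusted p under 0.05 in edgeR 13 were higher and none lower, against 935 higher and 1198 lower among all genes. Dusp1 stood at 100.4 and 116.6 CPM against 53.53 and 51.78 CPM (1.03 ± 0.14). The part of these genes in the other calls was not tested. Of 11 pericyte and smooth muscle genes tested, 8 were called lower, and 7 of the 11 had no UMI in any Pthlh+ Gdf10+ cell. Acta2 was at least 14.9-fold lower and Kcnj8 at least 5.17-fold lower, against a floor of 3 counts over the Pthlh+ Gdf10+ cells of both libraries, and the list's median was -2.38 with such genes at this bound. In the rest, 97.9% and 98.1% of the UMIs of the pericyte markers lay in 30 and 40 cells. Without those cells 149 genes were called lower in all, and Rgs5 turned to 1.07. That value rests on 1 Rgs5 UMI in the Pthlh+ Gdf10+ cells of each library, and Rgs5 was among the markers that picked the cells left out. The erythroid genes Alas2, Hba-a2 and Hbb-bt were called higher, and 1 cell of replicate 2 held 99.8% of the Hba-a2 UMIs of the Pthlh+ Gdf10+ cells there. In replicate 1 Hba-a2 stood at 17.09 CPM against 261.3 CPM in the rest. Without cells rich in erythroid transcripts, 1 Pthlh+ Gdf10+ cell and 3 of the rest, Hba-a2 turned to -1.24 (adjusted p = 0.0015), Hbb-bt to -0.26 (adjusted p = 0.826) and Alas2 did not pass the filter on low counts. Of 125 genes then called higher, 119 were among the 137.

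At P7 the same rule gave 28 of 4233 mesenchymal cells (0.661%, 0.440 to 0.955). Both gate genes together were seen in 5.53% of P7 mesenchyme before the cartilage limit and in 9.29% of cells with at least 2 UMIs of the endothelial gene Cdh5, with median depths of 11537 and 12343.5 UMIs. The share was 1.90% in the Epcam cells and 1.67% in the Sox10 cells of P7, so whether the P7 cells stand above background depends on the cells taken for it. Below the limit Gdf10 was seen in 17.5% of P7 cells with Pthlh and 17.7% of those without it, and at or above the limit in 82.1% and 48.5%. Of the 137 genes called higher at E15, 130 had at least 3 UMIs at P7, and 42.3% of these were higher in the 28 cells than in the other P7 mesenchyme, against 45.9% of all genes. Of those called lower at E15, 62.9% of 178 were lower at P7, against 54.1% of all genes. Angpt1 stood at 14.84 CPM in the 28 cells (6 UMIs) and 5.93 CPM in the other P7 mesenchyme, Pgf at 22.26 against 16.8 CPM and Lepr at 14.84 against 31.3 CPM. P7 was a single library, so age and library cannot be told apart.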

How the data were processed

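Cells of 2 E15 libraries and 1 P7 library were prepared with the Chromium 3' v3 kit per the labels' protocols. The authors deposited unnormalised UMI counts for each gene in each barcode, produced with Cell Ranger, version 6.1.2 and build GRCm38 per the submitters' processing notes, while the file headers give 6.1.2 for E15 and 3.1.0 for P7. The rule by which the authors called cells is not given in the sources used here. The libraries held 3234, 3897 and 8141 barcodes (E15 replicates 1 and 2, P7) with 46530036, 44304364 and 93829443 UMIs. Of these, 2838, 3537 and 7262 passed the limits on genes and mitochondrial UMIs.

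From these counts UMIs were summed per library for the Pthlh+ Gdf10+ cells and the rest. The 4 sums were tested with edgeR 4.0.16 (limma 3.58.1, R 4.3.3): TMM scaling, filterByExpr, library as a block and the quasi-likelihood test, adjusted by Benjamini-Hochberg over 13371 genes. SE is the log2 change over the square root of F. Genes of the gate, Pgf and Lepr were fitted but not tested. Both sums of a library come from the same droplets, which is why it is a block (their deviations from the set means correlated at r = 0.135 over 3211 genes). Nothing in the labels says that the libraries came from separate litters, so the spread between them may be technical. The p-values rest on counting error and a spread shared across all genes. They do not measure a gene's own spread between libraries or between cells. The test was simulated on 13447 genes, with changes given to genes of at least 5 CPM on average. Of genes changed by a fold of 2, 45% were recovered, and of those changed by a fold of 4, 91%. A call needed a fitted fold of 2, so the first share is held down by that limit itself. In the simulation 5 unchanged genes were called. The simulated sums had the same spread for all genes and no cells, so this number does not cover genes carried by a single cell.

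The members and gene lists were chosen with earlier results of these data known. Named genes are the 15 largest changes in each direction among called genes with at least 50 CPM in the higher group in both libraries (mitochondrial, ribosomal, immunoglobulin, sex-linked, Gm-numbered, Rik and gate genes left out), up to 8 called genes per list, and the tested genes of the PTHrP, leptin, ligand and VEGF lists. Emcn and the markers of cell types were named beside them, and some genes of the rule are not reported here. Lists not described in the report held, of genes tested, 0 of 23 called for hypoxia and glycolysis (2 higher and 5 lower at an unadjusted p under 0.05, 0 by DESeq2), 0 of 12 for cell cycle inhibitors (1 and 1, 0 by DESeq2), 3 of 15 lower for meningeal cells, 1 of 9 lower for epithelium, 1 of 7 lower for endothelium, 1 higher and 1 lower of 9 for glia, 1 of 10 lower for neurons, 0 of 1 for macrophages (0 and 0, 0 by DESeq2), 1 of 2 lower for melanocytes and 0 of 2 for skeletal muscle (0 and 1, 0 by DESeq2). Of 11 other mesenchyme markers 1 was higher and 4 lower, and of 17 IGF genes 1 was higher and 1 lower.

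Doublets were not removed. Scrublet in scanpy 1.11.5 marked 7 and 4 cells by its automatic threshold, too few to rely on, and removing the highest scores instead (64 and 100 cells, 2 and 3 of them Pthlh+ Gdf10+) was an alternative. Intervals are exact 95% binomial and cover counting error only. Alternatives were DESeq2 1.42.0 and its size factors, no low-count filter, no block, a test against a fold of 1.5, other rests, stricter gates and thinned cells. Leaving out erythroid or pericyte-marker cells and dropping the cartilage limit were added after seeing the data. Promoters were taken from RefSeq (GRCm38.p6) and gene coordinates from GENCODE (GRCm38). Scripts used Python 3.11.15, numpy 2.4.6, scipy 1.17.1, pandas 2.3.3, anndata 0.12.19 and matplotlib 3.10.9.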

Additional observations from a re-analysis of the deposited data

Results flagged for a closer look

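When cells were chosen by the same rule, 6 leading genes with at least 3 UMIs in the P7 cells stood the opposite way in the single P7 library from both E15 libraries, and this difference was not tested. Khdrbs2 (0 against 2.00 CPM) and Meox2 (4.95 against 2.57 CPM) also stood the opposite way, with fewer than 3 UMIs. Among genes higher in the Pthlh+ Gdf10+ cells at E15, the P7 cells held Ntrk2 at 59.36 CPM (other P7 mesenchyme 91.42), Id2 at 798.9 CPM (1443), Exoc1 at 14.84 CPM (18.33) and Ddah1 at 7.42 CPM (29.98). Among genes lower at E15, they held Pam at 415.5 CPM (272.9) and Epha7 at 76.67 CPM (43.7). The P7 values rest on 28 cells.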

How the results depend on the processing

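The count of genes called higher (137) and lower (183) depended on the cells compared, their number and the test used. It was 295 and 285 against cells with neither gate gene, 274 and 508 with no cartilage limit, 64 and 65 against a rest matched on depth, 38 and 55 with the gate set after thinning, and 62 and 51 with DESeq2. With at least 2 UMIs of each gate gene 63 were higher, against a fold of 1.5 there were 92 lower, and with predicted doublets removed 111 lower. Against the low-cartilage rest the counts were 136 and 182, with 93 and 127 genes shared with the report. With no replicate block 110 were higher and 125 lower, and 17 named genes lost their call, against 71 with the thinned gate, 50 with DESeq2 and 50 with at least 2 UMIs, genes that reversed not counted.

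With no cartilage limit the changes that reversed were Wdcp (0.34), Hapln1 (1.90), Mia (1.31), Postn (1.64), Calca (-0.29), Fbln2 (0.31), Kif20a (0.18), Cenpa (0.37), Cenpe (0.35) and Cenpf (0.31). With the thinned gate they were Wnt11 (-0.46), Postn (0.22), Cdh6 (0.11), Hba-a2 (-3.50) and Hbb-bt (-3.41), and with at least 2 UMIs Exoc1 (-0.78), Col8a2 (-0.058), Hba-a2 (-3.63) and Hbb-bt (-3.85). Against the matched rest Car3 (0.54) and Cenpf (0.0273) reversed, and without erythroid cells Hba-a2 (-1.24) and Hbb-bt (-0.26). Rgs5 reversed without pericyte-marker cells (1.07), on 1 UMI in the Pthlh+ Gdf10+ cells of each library. Some settings also add cells: with no cartilage limit the Pthlh+ Gdf10+ group grew to 153 and 176 cells. The thinned gate could let in cells at or above the cartilage limit at full depth. The cause of the reversals was not tested. Leaving out a library leaves no residual degree of freedom, so it gives changes with no test and no counts. The changes of Alas2 (-7.03 without replicate 2 and 5.53 without replicate 1), Hba-a2 (-3.95 and 4.64) and Hbb-bt (-4.44 and 4.74) reversed without replicate 2, and no other named gene that was called did.

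The share of Pthlh+ Gdf10+ cells was 1.01% and 0.887% with at least 2 UMIs of each gene, and 2.12% in replicate 1 with the thinned gate. The share with G2/M transcripts was 60.7% and 37.5% unthinned and 16.4% in replicate 1 at 2000 UMIs. In the rest it was 55.2% and 51.0% unthinned, 28.6% and 29.8% at 2000 UMIs, and 31.7% and 32.7% when matched on depth. With 61 and 56 cells, genes seen in a few of them are limited by counting.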
